A study of Homo sapiens with 4 samples.

Results

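Transforming growth factor beta (TGF-beta) signalling was described here through 10 genes: the ligands TGFB1, TGFB2 and TGFB3, the activin subunit gene INHBA, the receptors TGFBR1, TGFBR2 and TGFBR3, the latent binding proteins LTBP1 and LTBP2, and the induced matrix protein TGFBI. The genes were picked by symbol, with earlier results of these data known. All 10 were found among the 29387 genes listed in every library. RNA came from U87MG, an established human glioblastoma line and the only line used. The parental line lived on organotypic brain slices, living sections of brain in culture, for 1 week, fed with a medium for neural stem cells that contained FGF and EGF. Highly invasive and poorly invasive (control) populations were isolated from the slices, grown in culture for 3 to 5 days and lysed, so every population had met the slice, the medium and the regrowth. Each population gave 1 polyadenylated RNA library. Invasive 1 has control 1 as its control (pair 1) and invasive 2 has control 2 (pair 2). The labels call the invasive populations clones and the series text calls them independent, without saying how they were derived.

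TGF-beta ligands are secreted as latent complexes, in which the propeptide stays bound to the mature ligand and is tied to the matrix by latent binding proteins. Once released, the ligand binds the type II receptor TGFBR2, which activates the type I receptor TGFBR1, and this kinase phosphorylates SMAD2 and SMAD3. In glioblastoma the pathway is known for its links to invasion, matrix production and immune suppression.

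The 4 libraries held 13829871 to 17817756 counts. Levels are given as counts per 1000000 counts of the library (CPM). For a gene with no count the limit was 0.168 to 0.217 CPM (3 counts in the library, counting error only). On the first principal component of all genes tested (47.3% of the variance) the invasive libraries lay together at 22.8 and 23.5. Control 1 lay at −10.2 and control 2 apart at −36.1. The second component (35.0% of the variance) separated the pairs, so the invasive libraries lay apart on it. Control 1 and invasive 1 were at 28.05 and 12.95 there, control 2 and invasive 2 at −16.07 and −24.93. The line's markers VIM, CD44 and EGFR had at least 3112 counts in each library, while SOX2 had 0 or 1 and GFAP 2 to 4. AQP4 of astrocytes, MOG of oligodendrocytes, P2RY12 of microglia and CLDN5 of endothelium had 0 counts in each library. Other markers of the same cell types were counted. SLC1A3 of astrocytes had 297 to 594 counts, CNP of oligodendrocytes 1229 to 1906, CSF1R of microglia 140 to 379 and KDR of endothelium 120 to 353. No neuron marker was 0 in every library, and GAD1 had 212 to 300 counts. Over whole lists the summed level was 18.9 to 26.4 CPM for neurons, 23.7 to 41.3 for astrocytes, 87.6 to 124 for oligodendrocytes (nearly all CNP), 11.9 to 22.7 for microglia and leukocytes and 10.3 to 23.8 for endothelium. Slice cells of another species, which the labels do not name, could escape these counts in whole or in part, which was not tested.

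The 3 ligand genes start from promoters of different make-up. Whether this bears on their levels was not tested. The windows hold the 120 bases before each RefSeq start (GRCh38.p14), read on the gene's strand. They are chr19:41353923-41354042 (minus strand) for TGFB1, chr1:218345216-218345335 (plus strand) for TGFB2, and chr14:75983012-75983131 and chr14:75981996-75982115 (minus strand) for the upstream and downstream starts of TGFB3. None overlaps an exon of its gene in GENCODE release 29. Capitals mark matches, on either strand, to the GC box GGGCGG, the TATA box TATAAA, the core TGACG of the cAMP response element (CRE) and the E box CACGTG, none of which overlap here.
TGFB1: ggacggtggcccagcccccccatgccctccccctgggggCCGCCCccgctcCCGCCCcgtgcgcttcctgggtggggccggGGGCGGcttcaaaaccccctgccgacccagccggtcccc
TGFB2: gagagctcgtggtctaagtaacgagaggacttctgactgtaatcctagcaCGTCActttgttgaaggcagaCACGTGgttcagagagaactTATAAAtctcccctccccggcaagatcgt
TGFB3, upstream start: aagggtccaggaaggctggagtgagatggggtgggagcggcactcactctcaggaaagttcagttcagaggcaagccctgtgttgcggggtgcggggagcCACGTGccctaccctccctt
TGFB3, downstream start: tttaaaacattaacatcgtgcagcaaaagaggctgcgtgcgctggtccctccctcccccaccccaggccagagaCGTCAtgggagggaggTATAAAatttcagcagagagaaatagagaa

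The TGFB1 window is 80.8% G and C and holds 3 GC boxes and no TATA box. The TGFB2 window (49.2% G and C) and the downstream TGFB3 window (50.8%) each hold a TATA box and a CRE core, and no GC box. The upstream TGFB3 window (62.5%) holds an E box, as does that of TGFB2. Of 35116 RefSeq windows of the same length, 34.0% hold the GC box, 5.63% the TATA box, 13.3% the CRE core and 3.90% the E box. These matches are descriptions of sequence. The counts are per gene and do not separate the starts. The TGFB2 window ends at 218345335, while the counted gene begins at 218346235. The downstream TGFB3 window lies within the bounds of the counted gene.

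Levels of different genes were compared per kilobase of exon (CPM per kb), with exon lengths from GENCODE release 29 within the gene bounds of the count tables. TGFBI was the most abundant of the 10, with 235 to 589 CPM per kb, and stood at rank 29 to 91 among 14101 genes in the 4 libraries. TGFBR2 (31.0 to 45.6 CPM per kb), LTBP1 (23.7 to 49.5), TGFB1 (28.9 to 33.8) and TGFBR1 (15.4 to 36.1) followed, and neighbours in this order overlapped in range. LTBP2 (7.52 to 10.9) and TGFB2 (4.84 to 6.32) came next, each clear of its neighbours. TGFB3 (1.28 to 3.08) and TGFBR3 (1.45 to 2.69) overlapped, and INHBA was lowest at 0.125 to 0.258 CPM per kb. The order was thus led by the induced matrix protein, then by the signalling receptors, LTBP1 and TGFB1.

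**Figure D1:**
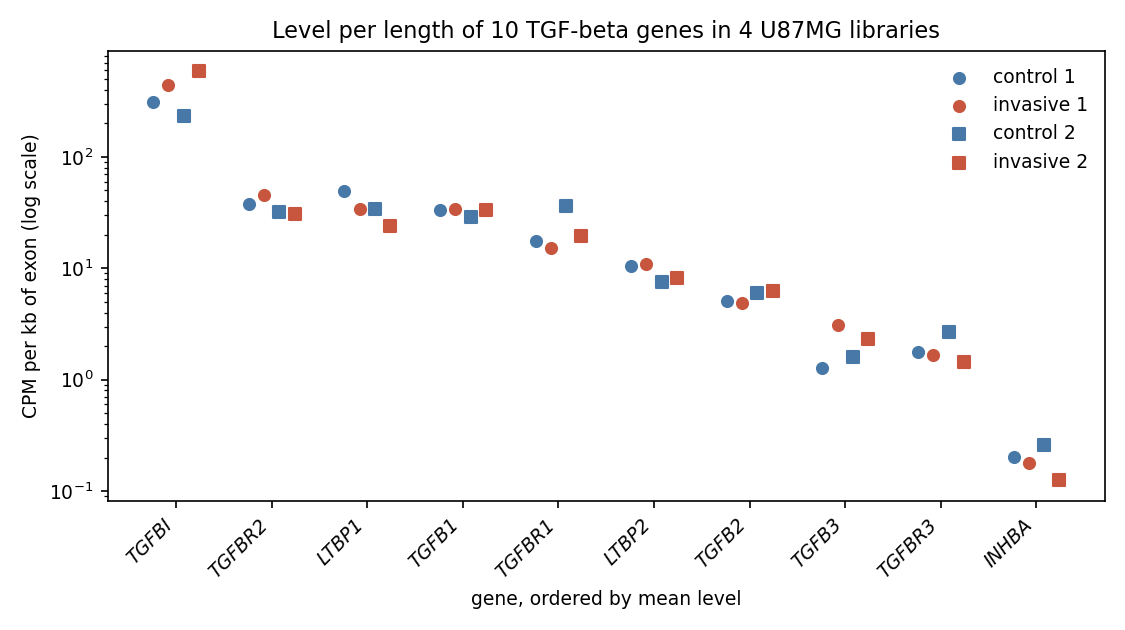
Level of each of the 10 genes in CPM per kb of exon (log axis) in the 4 libraries, with genes ordered by their mean. Circles are pair 1 and squares pair 2, blue is control and red invasive; TGFBI lies above every other gene at 235 to 589, and the TGFBR1 square of control 2 stands above its other 3 points.

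Between invasive and control populations, TGFBI and TGFB3 had the largest positive log2 differences and LTBP1 was lower by nearly the same amount in both pairs, but none of the 10 genes passed the adjusted threshold. The test was edgeR's quasi-likelihood test on all 14231 genes that passed the low-count filter. It took the pair as a block, and p was adjusted by Benjamini and Hochberg's method with a threshold of 0.05. It called 0.274% of the genes and 0 of the 10 (with no replicate block 0.0141% and again 0). At an unadjusted p under 0.05 there were 4 of 10, where 18.2% of all genes tested reached that level. These were TGFB3 and TGFBI among the higher (9.82% of all genes) and TGFBR1 and LTBP1 among the lower (8.41%). DESeq2 with the same block called 1 of the 10, LTBP1, and 1.39% of the 12299 genes to which it gave an adjusted p. INHBA was not among those 12299 genes. Without the low-count filter edgeR called 5 of the 10, TGFB3, TGFBI, TGFBR1, TGFBR3 and LTBP1, and 5.68% of 25577 genes. In that setting the median of the estimated prior degrees of freedom was infinite. For a gene at that median, its own variation between pairs did not enter its test.

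In both pairs 4 genes were higher (TGFB1, TGFB3, LTBP2 and TGFBI), against 36.0% of all genes, and 4 were lower (TGFBR1, TGFBR3, LTBP1 and INHBA), against 29.3%. TGFB1 in pair 1 was near 0, at 0.03 log2 units and −0.0084 with TMM-scaled totals, so its direction there depends on the scaling. The pairs had opposite signs in TGFB2 and TGFBR2, as in 34.7% of all genes. The groups did not overlap in 5 of the 10, against 43.4% of all genes: both invasive libraries were above both controls for TGFB1, TGFB3 and TGFBI (23.7% of all genes) and below them for TGFBR3 and INHBA (19.7%). For TGFB1 this too depends on the scaling, since invasive 1 was below control 1 with TMM-scaled totals. With 1 library per population, p-values rest on how the invasive to control difference varied between the 2 pairs, dishes included. At the median gene most of the weight in that variation came from other genes (1 residual degree of freedom, a median of 5.45 from the prior). The prior was fitted robustly and can differ between genes. In bulk RNA a smaller share of cells with a transcript and a lower level per cell cannot be told apart.

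**Figure D2:**
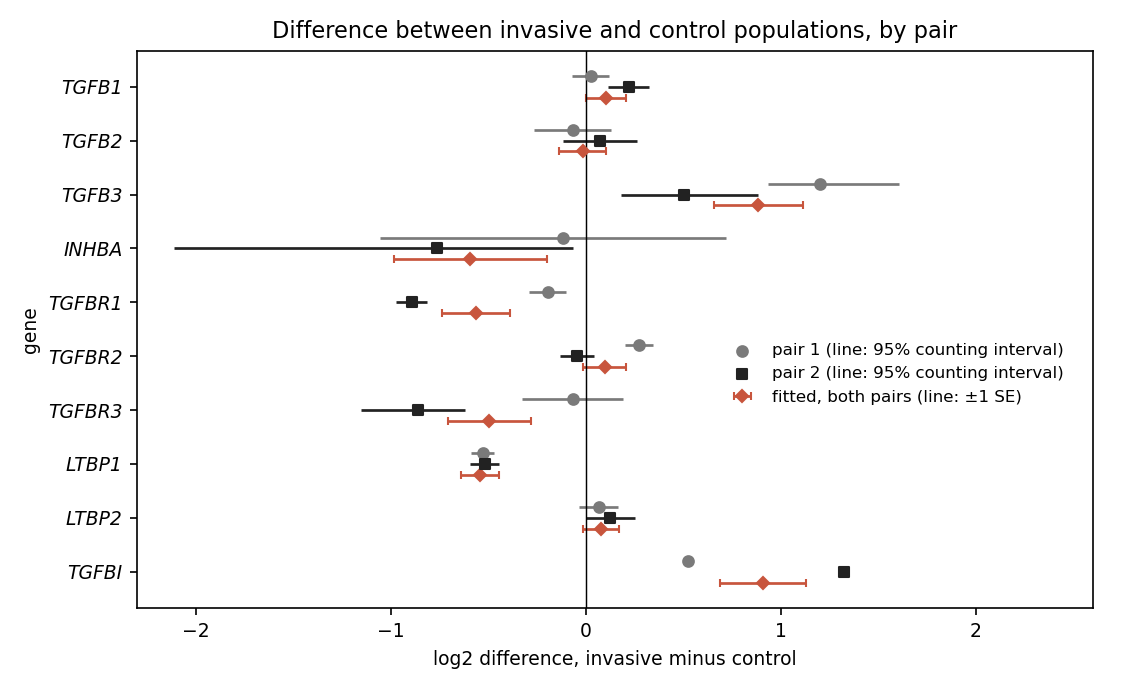
Log2 difference between invasive and control for each gene in pair 1 (grey circles) and pair 2 (black squares), with lines for the 95% counting interval of the ratio, and the fitted log2 fold change over both pairs (red diamonds, ±1 SE). LTBP1 lay at −0.53 and −0.52 in the pairs. TGFBI (0.53 and 1.33) and TGFBR1 (−0.19 and −0.89) differed between the pairs by more than counting error. So did TGFB3 (1.20 and 0.51), TGFBR3 (−0.07 and −0.86) and TGFBR2 (0.27 and −0.04).

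TGFB1 (ENSG00000105329, chromosome 19, 41301587 to 41353911), the ligand best known in glioblastoma alongside TGFB2, had 107 and 109 CPM in control 1 and invasive 1, and 93.7 and 109 CPM in control 2 and invasive 2. Control 2 was lower and the others lay together, so the groups did not overlap although they nearly touched. With TMM-scaled totals invasive 1 was below control 1 (log2 difference −0.0084), so the groups then overlapped. Over both pairs the fitted log2 fold change was 0.10 ± 0.10 (SE), with a 95% interval of −0.14 to 0.35 (adjusted p = 0.626), and it was −0.0077 without control 2. A stretch of 215 exon bases is shared with HNRNPUL1 on the other strand, which had 4210 to 6232 counts. The libraries kept the strand, but whether counting used it is not given, so some reads there cannot be told apart.

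TGFB2 (ENSG00000092969, chromosome 1, 218346235 to 218444619) encodes a ligand first studied as a suppressor of T cells secreted by glioblastoma. Its levels were 26.2 CPM in control 1 beside 25.0 in invasive 1, and 31.0 in control 2 beside 32.5 in invasive 2. Libraries of the same pair lay together, pair 2 was higher, and the groups overlapped. The fit gave a log2 fold change of −0.02 ± 0.12, with an interval of −0.31 to 0.27 (adjusted p = 0.960). The non-coding gene TGFB2-OT1 lies within its exons on the same strand over 1371 bases.

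TGFB3 (ENSG00000119699, chromosome 14, 75958099 to 75982991), the ligand known from palate closure and scar formation, had 6.29 CPM in control 1 (112 counts), 15.1 in invasive 1 (234), 7.90 in control 2 (122) and 11.4 in invasive 2 (158). Both invasive libraries lay above both controls. In log2 units they differed by 1.20 (pair 1) and 0.51 (pair 2), and the counting intervals of both lay above 0. Over both pairs the log2 fold change was 0.88 ± 0.23 (interval 0.33 to 1.44, adjusted p = 0.143). Leaving out any 1 library kept it between 0.67 and 1.07. The antisense gene TGFB3-AS1 had at most 1 count, so it added little to this total.

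In the ligand pool, measured per length, TGFB1 made up 83.9% and 81.0% in control 1 and invasive 1, and 79.2% and 79.6% in control 2 and invasive 2. TGFB2 made up 11.6% to 16.4%. The share of TGFB3 was 3.24% in control 1 against 7.39% in invasive 1, and 4.40% in control 2 against 5.49% in invasive 2. TGFB1 was thus the main ligand transcript in all 4 libraries, and TGFB3 the smallest.

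INHBA (ENSG00000122641, chromosome 7, 41685114 to 41703108) encodes the beta A subunit, which dimerizes to activin A, a related ligand that signals through the same SMADs. It had 1.52 CPM in control 1 beside 1.36 in invasive 1, and 1.94 in control 2 beside 0.940 in invasive 2, from 27, 21, 30 and 13 counts. Both invasive libraries were below both controls, but at these counts the interval within pair 1 ran from −1.05 to 0.72. Fitted over both pairs, the log2 fold change was −0.59 ± 0.39, with an interval of −1.54 to 0.35 (adjusted p = 0.466).

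TGFBR1 (ENSG00000106799, chromosome 9, 99104038 to 99154192), the type I receptor kinase, had 120 and 105 CPM in control 1 and invasive 1, and 247 and 133 CPM in control 2 and invasive 2. Control 2 stood apart, and the other libraries lay together, with invasive 2 above control 1. In log2 units invasive differed from control by −0.19 (pair 1) and −0.89 (pair 2). The fitted value was −0.56 ± 0.17 (adjusted p = 0.208). It was −0.05 without control 2 and −1.06 without control 1, so its size rested on control 2.

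TGFBR2 (ENSG00000163513, chromosome 3, 30606502 to 30694142), the type II receptor that binds ligand, had 177 CPM in control 1 beside 215 in invasive 1, and 150 in control 2 beside 146 in invasive 2. Pair 1 was higher than pair 2, and the pairs moved in opposite directions, by 0.27 and −0.04 log2 units. The counting interval of pair 2 (−0.13 to 0.04) included 0. The fitted log2 fold change was 0.10 ± 0.11 (interval −0.17 to 0.36, adjusted p = 0.679). Per length, TGFBR2 exceeded TGFBR1 by 2.15-fold in control 1, 2.97-fold in invasive 1 and 1.60-fold in invasive 2, and the ratio was 0.885 in control 2. Control 2 was the only library of the 4 with more TGFBR1 than TGFBR2 transcript per length.

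TGFBR3 (ENSG00000069702, chromosome 1, 91680343 to 91906335), betaglycan, is a co-receptor that presents ligand, TGF-beta 2 above all, to TGFBR2. It had 15.3 and 14.6 CPM in control 1 and invasive 1, and 23.4 and 12.7 CPM in control 2 and invasive 2. Both invasive libraries were below both controls, narrowly so in pair 1, where the counting interval (−0.33 to 0.19) included 0. The log2 difference in pair 2 was −0.86. The fitted log2 fold change was −0.49 ± 0.21 (adjusted p = 0.293), and −0.20 without control 2. As with TGFBR1, the highest level was that of control 2.

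LTBP1 (ENSG00000049323, chromosome 2, 32946972 to 33399509) encodes the latent binding protein that anchors the latent complex to fibrillin and fibronectin. It had 363 CPM in control 1 beside 252 in invasive 1, and 250 in control 2 beside 174 in invasive 2. Each invasive library was below its own control, yet invasive 1 and control 2 were level, so the groups overlapped. The ratio of invasive to control was 0.693 in pair 1 and 0.697 in pair 2. Its fitted log2 fold change was −0.54 ± 0.10 (interval −0.78 to −0.31, adjusted p = 0.0937 with edgeR's quasi-likelihood test and 0.04996 with DESeq2). With no replicate block the fold change was −0.55 and the adjusted p = 0.481; in each group pair 1 was the higher. Fits with 1 library left out also had no replicate block, so the difference in level between the pairs entered them. They gave −0.24 without control 1, −0.31 without invasive 2, −0.80 without control 2 and −0.83 without invasive 1.

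LTBP2 (ENSG00000119681, chromosome 14, 74498170 to 74612378) is a member of the same family that does not bind latent TGF-beta and belongs to elastic microfibrils. It had 94.8 and 99.3 CPM in control 1 and invasive 1, and 68.4 and 74.6 CPM in control 2 and invasive 2. Pair 1 was higher than pair 2, and within each pair the libraries lay close. The fitted log2 fold change was 0.08 ± 0.09, with an interval of −0.15 to 0.30 (adjusted p = 0.701). Per length, the ratio of LTBP1 to LTBP2 was 4.75 in control 1 and 3.14 in invasive 1, and 4.53 in control 2 and 2.89 in invasive 2.

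TGFBI (ENSG00000120708, chromosome 5, 136028895 to 136063818) encodes a secreted matrix protein that binds integrins and collagen and was named for its induction by TGF-beta. It had 2416 CPM in control 1 beside 3481 in invasive 1, and 1834 in control 2 beside 4599 in invasive 2. Both invasive libraries lay above both controls, and pair 2 was wider, with the lowest control and the highest invasive level. Group means were 2125 ± 411 CPM in controls and 4040 ± 791 in invasive populations (SD, n = 2). The invasive level was 1.44-fold that of its control in pair 1 and 2.51-fold in pair 2. The fitted log2 fold change was 0.91 ± 0.22 (interval 0.33 to 1.49, adjusted p = 0.163). It was 0.69 to 1.13 when any 1 library was left out. At 28329 to 63604 counts the counting intervals of the log2 difference were narrow, 0.51 to 0.55 in pair 1 and 1.31 to 1.35 in pair 2, and did not meet.

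The other genes of the pathway were taken as 5 lists, described by counts and medians beside those of all genes tested. The median log2 fold change of all genes tested was 0.01. The lists were chosen with earlier results of these data known, so these comparisons are descriptions and no test of the lists. Of 79 genes tested in the lists, COL1A1 alone passed the threshold. It encodes a chain of type I collagen, whose transcription TGF-beta is known to raise. COL1A1 had 624 and 1458 CPM in control 1 and invasive 1, and 285 and 873 CPM in control 2 and invasive 2. Its transcript rose, with a log2 fold change of 1.40 ± 0.13 (adjusted p = 0.0278), with both invasive libraries above both controls. The call was lost with no replicate block (adjusted p = 0.435 with edgeR's quasi-likelihood test). Fits with 1 library left out had no replicate block either. Their log2 fold changes were 2.02 without control 1, 0.92 without invasive 1, 0.87 without control 2 and 1.65 without invasive 2.

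**Figure D3:**
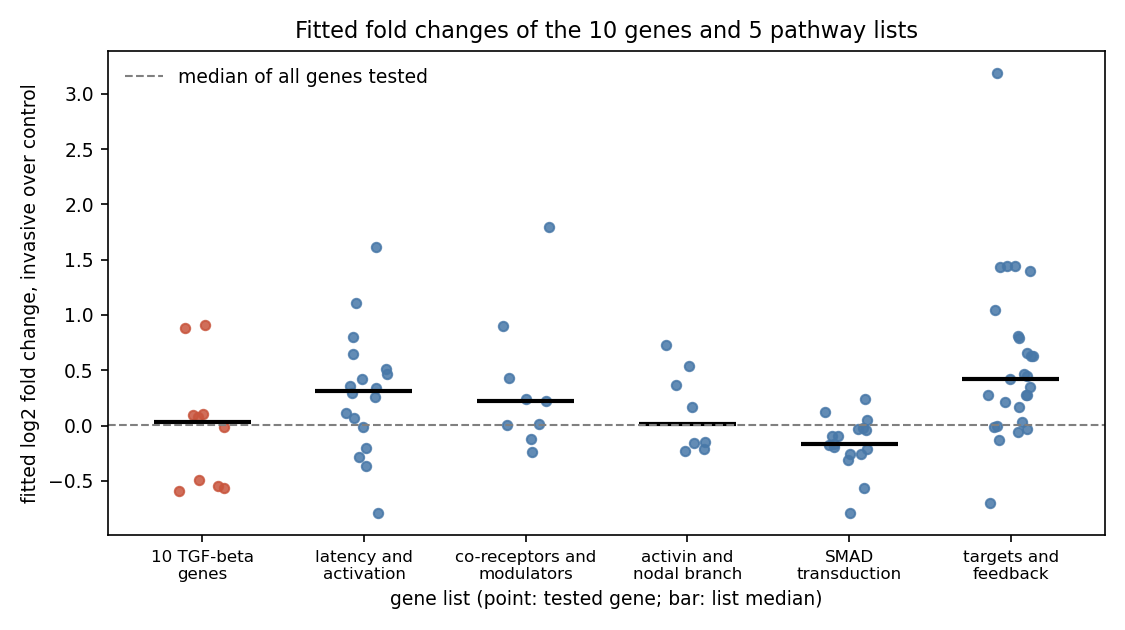
Fitted log2 fold change (invasive over control) of each tested gene among the 10 TGF-beta genes (red) and in the 5 pathway lists (blue), with a bar at each list's median and a dashed line at the median of all genes tested. The SMAD transduction median lay at −0.17 and the targets and feedback median at 0.42, the lowest and highest of the 6 groups.

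Genes of latency and activation release TGF-beta or hold it latent. Of 23 listed, 18 were tested, 0 passed the threshold, and 10 were higher and 2 lower in both pairs, beside 36.0% and 29.3% of all genes (median log2 fold change 0.31). Fibrillin 1 (FBN1), the microfibril to which latent complexes attach, had 733 and 550.4 CPM in controls 1 and 2 and 1149 and 1100 CPM in invasive 1 and 2 (log2 fold change 0.80 ± 0.13, adjusted p = 0.0802, with DESeq2 0.000211 and with RLE factors 0.0498). NRROS, which holds latent TGF-beta on microglia and macrophages, had −0.79 ± 0.27 at 29 to 74 counts (adjusted p = 0.218). Its homologue LRRC32 (GARP), which does so on regulatory T cells, had 10.3 CPM in control 1 beside 39.8 in invasive 1, and 14.8 in control 2 beside 17.7 in invasive 2 (1.11 ± 0.53, adjusted p = 0.419). Thrombospondin 1 (THBS1), an activator of latent TGF-beta, had log2 differences of 0.42 in pair 1 and 2.91 in pair 2 (adjusted p = 0.594). LRRC32 was thus wide in pair 1 and THBS1 in pair 2.

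Among the co-receptors and receptor modulators, 9 of 10 were tested, 0 passed, and 5 were higher and 2 lower in both pairs, where all genes had 36.0% and 29.3% (median 0.22). VASN, a membrane protein that traps TGF-beta, had 19.5 and 18.9 CPM in controls 1 and 2 and 34.1 and 38.9 CPM in invasive 1 and 2 (0.90 ± 0.13, adjusted p = 0.0707, with DESeq2 0.0269 and with RLE factors 0.0423). BAMBI, a decoy receptor lacking the kinase domain, had 33 counts in control 1 and 30 in control 2 beside 64 in invasive 1 and 144 in invasive 2 (1.80 ± 0.36, adjusted p = 0.104). Endoglin (ENG) and CD109, both co-receptors, had 0.43 ± 0.10 and 0.24 ± 0.11 (adjusted p = 0.121 and 0.290). Over the 9 tested genes, both invasive libraries lay above both controls in 4 and below them in 2, beside 23.7% and 19.7% of all genes.

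In the activin and nodal branch, 8 of 18 genes were tested, 0 passed, and 4 were higher and 3 lower in both pairs, with 36.0% and 29.3% over all genes (median 0.01). INHBB, MSTN and TDGF1 had no count in any library. The activin receptor genes ACVR1B and ACVR1C had log2 fold changes of −0.23 ± 0.14 and 0.73 ± 0.36 (adjusted p = 0.433 and 0.327), the latter at 17 to 28 counts. The activin antagonist FSTL3 had 0.37 ± 0.26, and the ligand subunit INHBE had 0.54 ± 0.52 at 5 to 15 counts.

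Most SMAD transduction genes were lower in both pairs: 17 of 18 were tested, 0 passed, and 12 were lower and 3 higher, beside 29.3% and 36.0% of all genes (median −0.17). Some of these differences were near 0, as for SMURF1 among the lower (−0.004 and −0.007) and SKI among the higher (0.02 in pair 1). SMAD3, a transcription factor phosphorylated by TGFBR1, had 142 and 100.2 CPM in control 1 and invasive 1, and 177 and 85.8 CPM in control 2 and invasive 2. Both invasive libraries were below both controls, with log2 differences of −0.50 and −1.04 (log2 fold change −0.79 ± 0.14, adjusted p = 0.0937 with edgeR's quasi-likelihood test and 0.00605 with DESeq2). SMAD2, its partner, had −0.25 ± 0.11 (adjusted p = 0.288). NEDD4L, a ubiquitin ligase that acts on activated SMADs and receptors, had 66.2 CPM in control 1 beside 59.2 in invasive 1, and 133 in control 2 beside 70.0 in invasive 2, again with control 2 apart. The repressor partner E2F4 had −0.31 ± 0.09 (adjusted p = 0.173).

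Known targets and feedback genes had the highest median of the lists in the fit, 0.42 over 27 tested of 32. There was 1 gene past the threshold (0.274% of all genes), and 16 were higher and 2 lower in both pairs (36.0% and 29.3% of all genes). Within pairs the median of the list was 0.13 (pair 1) and 0.75 (pair 2) log2 units, and in pair 1 it was below those of the co-receptors (0.22) and of latency and activation (0.18). COL1A2, the other chain of type I collagen, had 875 and 550.1 CPM in controls 1 and 2 and 1927 and 1898 CPM in invasive 1 and 2 (1.44 ± 0.18, adjusted p = 0.0708, with DESeq2 9.36e-12 and with RLE factors 0.0498). Elastin (ELN) had 2 counts in control 1 and 4 in control 2 against 34 in invasive 1 and 18 in invasive 2 (adjusted p = 0.0960). COL3A1 had 1.44 ± 0.49 at 7 to 27 counts (adjusted p = 0.216). PMEPA1, a feedback inhibitor that sequesters SMADs, had 16.8 and 20.4 CPM in control 1 and invasive 1, and 11.6 and 71.4 CPM in control 2 and invasive 2 (adjusted p = 0.558), so that invasive 2 stood apart.

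Further target genes were chosen after their values were seen. IL11, a cytokine induced by TGF-beta, had 26.3 and 15.2 CPM in control 1 and invasive 1, and 20.3 and 65.2 CPM in control 2 and invasive 2. It was lower than the control in pair 1 and higher in pair 2. The inhibitory SMAD7, a direct feedback target, had −0.36 in pair 1 and 0.45 in pair 2, while SKIL had −0.16 and 0.12. CTGF was higher in both pairs (0.81 ± 0.17, adjusted p = 0.128, with DESeq2 0.0231), and HMGA2, a chromatin protein, lower in both (−0.70 ± 0.13, adjusted p = 0.0937, with DESeq2 0.00887). Signs thus differed among the targets named: collagen, elastin, CTGF and TGFBI transcripts were higher in both invasive libraries, and IL11, SMAD7 and SKIL differed in sign between pairs. Opposite signs were also seen in 34.7% of all genes tested. Of the 27 tested genes of the list, 16 were higher and 2 lower in both pairs.

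**Figure D4:**
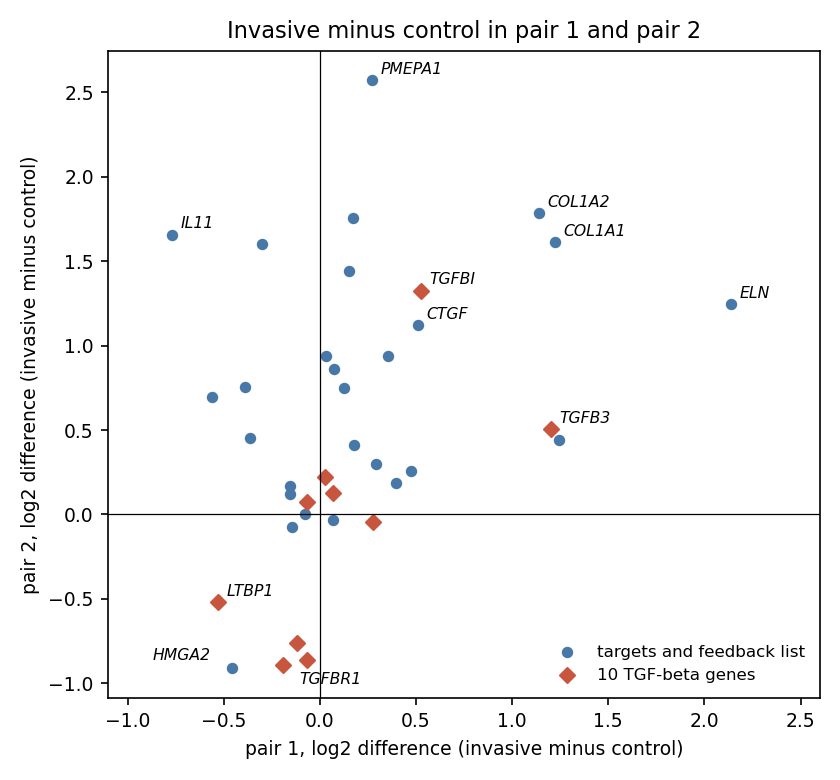
Log2 difference (invasive minus control) in pair 1 against that in pair 2 for the tested genes of the targets and feedback list (blue circles) and the 10 TGF-beta genes (red diamonds), with 11 genes named. TGFBI, TGFB3, COL1A1 and COL1A2 lie above 0 in both pairs, LTBP1, TGFBR1 and HMGA2 below 0 in both, and IL11 in the upper left at −0.77 in pair 1.

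For the 3 genes with the largest fitted change, the nearest profiles over the 4 libraries were sought as the Euclidean distance between log2 CPM values centred on each gene's mean. Nearest to TGFBI were ANK3 (distance 0.06 log2 units), PARM1 (0.06) and PYCR1 (0.10), with 27 genes within 0.2. Nearest to TGFB3 were RP3-388M5.9 (0.07), SLC4A10 (0.08), both at 0.281 to 1.49 CPM, and LINC01234 (0.11), with 12 genes within 0.2. INHBA lay nearest to RAB27B, AP1S3 and an antisense gene named after its clone (each 0.06), with 47 genes within 0.2. At 13 to 30 counts the profile of INHBA is loose: its counting interval in pair 1, −1.05 to 0.72, is far wider than these distances. With 4 libraries many genes share a profile, so these neighbours describe likeness in these libraries only.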

How the data were processed

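Each library came with a raw and a normalized table. Raw tables hold whole-number counts per listed Ensembl gene (32100 genes in pair 1, 33485 in pair 2), with no scaling by the authors per the file headers. Normalized tables hold a score that the authors rounded to whole numbers, by a method the labels do not state. The submitters' processing notes name GRCh38, TopHat2 2.0.12, Bowtie, HTSeq, DESeq2 and bcl2fastq 1.8.4 without their roles. The strand setting is unknown.

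The 29387 genes shared by the 4 raw tables were joined, and filterByExpr (minimum count 10, total 15) left 14231. edgeR 4.0.16 (R 4.3.3) used TMM factors, robust quasi-likelihood fits and the pair as a block, two-sided. The block follows the series' design text. As a check, the deviations of same-numbered libraries from their group means correlated across genes (r 0.283). There is 1 residual degree of freedom, to which the prior adds 5.45 at the median gene. Scripts were tested on simulated data. Within-pair log2 differences used CPM plus 0.5, with exact 95% intervals for counting error only. With 1 library per group in a pair, no test of the pairs against each other is possible. The 10 genes and the 5 lists were chosen with earlier results of these data known. An item of the lists is not reported here. From each list the text names every gene past the threshold and up to 4 with the largest log2 fold change of 1 sign in both pairs. Alternatives were no block, DESeq2 1.42.0, RLE factors, no filter, each library left out, other scalings within pairs and the deposited scores.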

Additional observations from a re-analysis of the deposited data

Results flagged for a closer look

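In 3 genes of the pathway lists the pairs differed in opposite directions, each by at least 0.5 log2 units. Opposite directions of any size were found in 34.7% of all genes tested. The share of all genes at 0.5 log2 units was not computed. IL11 had −0.77 in pair 1 and 1.66 in pair 2. TIMP3, a metalloproteinase inhibitor, had −0.56 and 0.69 at 4 to 26 counts. DCN, decorin, a proteoglycan that binds TGF-beta, had 0.70 and −1.13 at 15 to 68 counts. The difference between pairs was not tested, since each pair has 1 library per group. Of the 10 TGF-beta genes, TGFB2 (−0.07 and 0.07) and TGFBR2 (0.27 and −0.04) differed in sign between pairs by less.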

How the results depend on the processing

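Of the 10 genes, none was called with no replicate block, with RLE factors or with any 1 library left out, LTBP1 was called with DESeq2 (log2 fold change −0.54), and 5 were called without the low-count filter. The fitted directions held in every alternative except some that left out a library: TGFB1 was −0.0077 without control 2, and TGFB2 0.17, TGFBR2 −0.19 and LTBP2 −0.15 without invasive 1 and 0.10, −0.01 and −0.16 without control 2. Over the 4 libraries left out, these genes ranged from −0.0077 to 0.21, −0.22 to 0.17, −0.19 to 0.36 and −0.16 to 0.34. LTBP1 ranged from −0.83 to −0.24 and TGFBR1 from −1.06 to −0.05 over the libraries left out. Within pairs, TGFBI moved to 0.49 in pair 1 with TMM-scaled totals and to 1.15 in pair 2 with the authors' normalized values, and the other 57 values moved by less than their counting interval. Among these, TGFB1 in pair 1, changed sign, from 0.03 to −0.0084 with TMM-scaled totals. INHBA has no such authors' value in pair 2.

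Over all genes tested, 34 were higher and 5 lower past the threshold. The counts were 2 and 0 with no replicate block, 80 and 9 with RLE factors, 760 and 693 with no filter, 142 and 29 with DESeq2, and 3 to 55 and 0 to 61 with 1 library left out. In the pathway lists, 1 gene higher and 0 lower became 0 and 0 with no replicate block, 4 and 0 with RLE factors, 16 and 4 with no filter, 7 and 2 with DESeq2, and 0 to 2 and 0 to 1 with a library left out. With a library left out, list medians ran from 0.17 to 0.35 for latency and activation, −0.092 to 0.15 for the activin and nodal branch, 0.092 to 0.30 for co-receptors, −0.20 to −0.051 for SMAD transduction and 0.18 to 0.78 for targets. COL1A1 ranged from 0.87 to 2.02 in the same way, without a call. Fits with a library left out have no replicate block, so a difference in level between the pairs enters their fold changes. In LTBP1 invasive 2 was −0.53 log2 units from invasive 1, and control 2 −0.54 from control 1. The lone library is assumed to vary like the other group. The cause of these shifts was not tested. Depth limits INHBA, ELN and COL3A1, at 34 counts or fewer per library.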
